A study of Mus musculus with 8 samples.

Results

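Wild-type (wt) mouse spinal cord and forebrain at embryonic day (E) 13.5 were compared gene by gene. The 4 libraries of this comparison were chosen by their labels out of 8 in the series, with 2 from forebrain and 2 from spinal cord. All 4 are of wt genotype and of the same age, and the labels name no treatment. The series also holds E15.5 forebrain, wt and with a Sox1-Cre-dependent knockout of EED, a subunit of a Polycomb complex. Those libraries enter here only as an alternative estimate of the spread. The labels do not say whether a library came from 1 embryo or from a pool, nor whether replicates came from separate embryos. The p-values therefore cover the spread among these libraries alone. In both tissues Xist was at 0 in replicate 1 and Eif2s3y, on chromosome Y, at 0 in replicate 2. Replicates 1 and 2 thus did not come from the same embryo, and their spread is not technical alone. The labels also do not say at which level the spinal cord was cut, nor whether ganglia and meninges were removed.

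The neural tube is divided from head to tail before its neurons form. The forebrain gives rise to cortex, basal ganglia, thalamus and hypothalamus, while the spinal cord forms motor neurons and sensory relay and local circuit neurons. At mid-gestation many spinal neurons have already left the cell cycle, and large parts of the forebrain wall still divide. Beside the cord lie the dorsal root ganglia, which hold the cell bodies of sensory neurons and their Schwann cell companions.

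Values were RPKM, reads per kilobase of gene scaled to library size, deposited to 0.1 RPKM. They are scaled for gene length, but the table holds no counts, so the depth behind each value is unknown and no counting interval can be given. The RPKM of all genes summed to 395740 and 397318 in the forebrain libraries and to 381572 and 378294 in the spinal cord libraries. Of 36317 gene symbols, 14713 reached 1 RPKM in at least 2 of the 4 libraries and were tested. Changes below are spinal cord minus forebrain on the log2(RPKM + 1) scale, with a standard error (SE), and understate the change of low genes. A gene is called higher or lower at a limma adjusted p (Benjamini-Hochberg over all tested genes) under 0.05. Folds are ratios of mean RPKM.

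Limma called 8758 genes, or 59.5% of those tested. Of all tested genes, 27.9% were called higher and 31.7% lower in spinal cord, 6.08% were called higher with a change of at least 1 and 5.08% were called lower with a change of at least 1. The groups did not overlap for 81.9% of the tested genes, nor for any of the 8758 called genes. Separate groups are thus no further support for a call. Member counts below are to be read against these shares. The median change of all tested genes was −0.02. For a single gene, an exact two-sided permutation of 2 libraries against 2 cannot go below p = 0.333, and the calls rest on limma's sharing of the spread across genes. They also rest on all 4 libraries. Calls numbered 5446 without forebrain replicate 1 and 4415 without forebrain replicate 2. They fell to 395 without spinal cord replicate 1 and 465 without spinal cord replicate 2, where the lone library was assumed to vary like the forebrain pair. Each of the 8758 called genes kept its direction with any 1 library left out. This was fixed in advance, since the groups overlapped for none of them. Of the 202 genes with a call that were named by rule, 163 and 149 kept it without forebrain replicates 1 and 2, and 64 and 67 without spinal cord replicates 1 and 2. Ttr, Lhx2, Slc6a5, Spon1, Celsr1, Epha3 and Slc43a1, described below, kept it in each of these 4 fits. In the counts that follow, "without either" library of a tissue means that each was left out in turn, with equal counts.

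Defining transcription factors were set beside both tissue labels. Of 20 tested forebrain factors 19 were lower in spinal cord, and of 26 tested spinal cord and hindbrain factors 21 were higher and 1 was lower. Of these, 14 forebrain factors and 17 spinal cord and hindbrain factors passed the filter through 1 tissue alone, so their direction was set by the filter and the counts are a description. With 1 RPKM required in all 4 libraries, 6 forebrain factors were lower and 3 spinal cord and hindbrain factors higher. Lhx2, a LIM homeobox factor of cortical progenitors, was at 169.6 and 169.1 RPKM in forebrain and at 4.8 and 6.1 in spinal cord (log2 −4.73 ± 0.11 SE, limma adjusted p = 0.000705). Lbx1, a factor of dorsal spinal neurons, was at 0.1 and 0 RPKM in forebrain and at 40.6 and 43.6 in spinal cord (log2 5.36 ± 0.079). Neurod6, a factor of cortical projection neurons, was the forebrain factor that was not called, at 81.4 and 67.2 RPKM in forebrain against 47.5 and 58.8. Sim1, at 2.1 and 2.3 RPKM in forebrain and 0.8 and 1.2 in spinal cord, was the spinal and hindbrain factor called lower.

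Markers of several cell types differed between the tissues. All 12 neuronal markers were higher in spinal cord (median log2 1.07), among them Snap25, a synaptic vesicle fusion protein, at 19 and 16.5 RPKM in forebrain and 58.4 and 59.5 in spinal cord. Tubb3, the general neuronal tubulin, rose by less, from 892.8 and 817.9 to 1090.1 and 1040 RPKM (log2 0.32 ± 0.064, limma adjusted p = 0.0199). Of 15 markers of dividing progenitors, 13 were lower and 1 higher (median −1.93). Mki67, a protein of cycling nuclei, was at 50 and 58.8 RPKM in forebrain and at 10.5 and 11.6 in spinal cord. Without either spinal cord library limma called 2 neuronal and 0 progenitor markers. It called 10 and 13 of them without forebrain replicate 1 and 9 and 11 without replicate 2. In bulk tissue, fewer cells of a type and less RNA per cell cannot be told apart. Markers of meninges were mixed, with 6 of 13 higher and 1 lower. Endothelial markers had 5 of 12 higher, and microglial markers 6 of 12 higher. These 3 lists had at most 3 calls each with any 1 library left out. Erythroid genes, mostly globins, went the other way, with 5 of 9 tested lower in spinal cord (median log2 −0.69). They summed to 8164.2 and 11034.1 RPKM in forebrain and 5975 and 5904.3 in spinal cord. Of them 4 were lower without forebrain replicate 1, 1 without replicate 2 and 0 without either spinal cord library. Most skeletal muscle and epidermal markers were under 1 RPKM, with 3 of 16 and 4 of 11 tested.

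**Figure D1:**
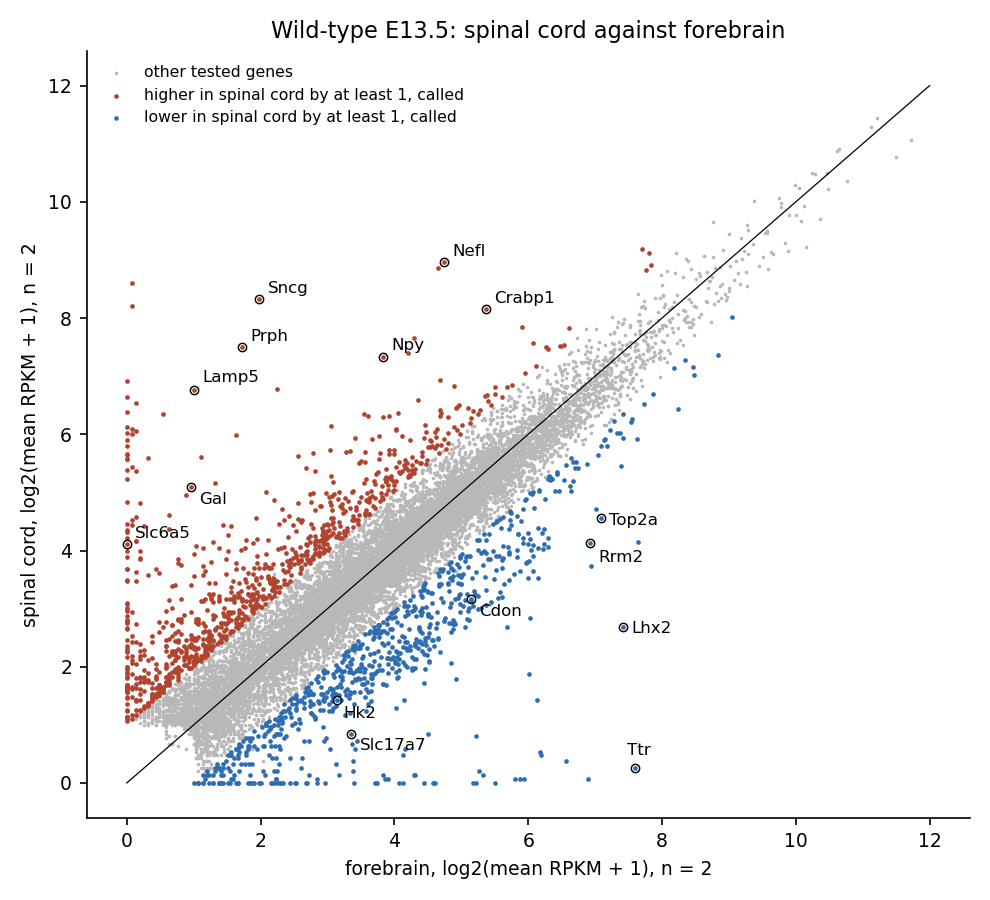
Each point is a tested gene at its mean level in forebrain (x axis) and spinal cord (y axis), both as log2(mean RPKM + 1) over 2 libraries. Coloured genes were called with a change of at least 1, and circled genes are described in the text, from Sncg and Prph above the line of equality to Ttr and Lhx2 below it.

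Beyond the Hox genes, the strongest changes towards spinal cord mixed sensory neuron genes with dorsal spinal factors. Sncg, which encodes gamma-synuclein, was at 3.4 and 2.5 RPKM in forebrain and 349.8 and 288.5 in spinal cord, 108-fold higher by the means (log2 6.34 ± 0.16, limma adjusted p = 0.000783). Prph, the peripheral neuron intermediate filament, was at 2.8 and 1.8 RPKM in forebrain and 202.4 and 158.3 in spinal cord. Lamp5, a neuronal lysosome-associated membrane protein, was at 1.1 and 0.9 RPKM against 101 and 112.9. These genes were named by a rule that asked for large changes and groups without overlap. Their separation was thus fixed by that choice. The same group held the paired box genes Pax2 (log2 5.27 ± 0.066) and Pax8 (4.44 ± 0.052), Skor1 (4.51), Prrxl1 (4.62) and Tlx3 (5.91). The neurofilament genes Nefl (log2 4.22) and Nefm (4.21) rose from 27.1 and 24.2 RPKM to 539.4 and 452.7, and from 25.5 and 23 to 506.8 and 425.9. Hotairm1, a noncoding RNA of the HoxA cluster, had no value above 0 in forebrain and stood at 15.7 and 23.2 RPKM in spinal cord. At the other end stood Ttr, the thyroid hormone carrier of choroid plexus, at 191.6 and 194.1 RPKM in forebrain and 0.3 and 0.1 in spinal cord. The 10 choroid plexus markers that are in no other list, Ttr thus left out, summed to 22.8 and 24.1 RPKM in forebrain and to 8.5 and 7.7 in spinal cord. With Ttr, 6 of 7 tested markers were lower, and 4 of the 7 passed the filter through 1 tissue alone (5 were lower without either forebrain library and 2 without either spinal cord library). Otx2, which is also in the list of forebrain factors, was at 0 in both spinal cord libraries. Sostdc1 was the tested marker without a call, at 2.6 and 3.3 RPKM in forebrain and 4.4 and 3.6 in spinal cord. The part of choroid plexus markers in the Ttr difference was not tested. Nr2e1, an orphan nuclear receptor of forebrain progenitors, was at 42.6 and 46.3 RPKM in forebrain and listed at 0 in spinal cord. The reads are unstranded, so Dlx1as (91.1 and 95.4 RPKM in forebrain, 0.3 in each spinal cord library) cannot be told apart from Dlx1 on the opposite strand.

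Neuropeptide genes were mostly higher in spinal cord, with a smaller group higher in forebrain. Of 65 listed genes for peptides, granins and their processing enzymes, 38 were tested, 7 of them through 1 tissue alone. Of these 38, 26 were higher and 8 lower, with 15 higher and 7 lower by at least 1 (median log2 0.75). Npy, neuropeptide Y, was at 14.4 and 12.1 RPKM in forebrain and 153.4 and 167.4 in spinal cord (log2 3.50 ± 0.101, limma adjusted p = 0.000928), which is 12.1-fold. Neither tissue's replicates came near the other group. Gal, which encodes galanin, was at 1 and 0.9 RPKM in forebrain and 43.7 and 22.4 in spinal cord (log2 4.05 ± 0.35, limma adjusted p = 0.00295). The spinal cord replicates of Gal were far apart, but both stood above forebrain. Its call was lost without forebrain replicate 1 (limma adjusted p = 0.0637) and without forebrain replicate 2 (0.07). Pdyn, the dynorphin precursor, was at 0.9 and 0.6 RPKM against 8.9 and 7 (log2 2.35 ± 0.15). Tac1, the substance P precursor, rose from 5 and 4.6 RPKM to 18.6 and 19.7 (log2 1.80), and Sst, somatostatin, from 62.5 and 56.4 to 117.9 and 112.2 (0.94). Genes of the secretory granule rose by smaller amounts, such as Chgb (log2 1.05), Pcsk2 (1.34) and Cpe (0.51).

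The peptides that were lower in spinal cord were largely ones known from hypothalamus and cortex. Rspo1, a secreted Wnt enhancer placed in the list as a secreted factor and not a neuropeptide, was at 15.1 and 18.3 RPKM in forebrain and 1.3 and 2.1 in spinal cord (log2 −2.72 ± 0.19, limma adjusted p = 0.00216). Pmch, the precursor of melanin-concentrating hormone, was at 4.4 and 3.4 RPKM in forebrain and 0.5 in each spinal cord library (log2 −1.70 ± 0.12). Cck, cholecystokinin, was at 5.7 and 5.8 RPKM in forebrain and 1.8 and 0.8 in spinal cord (log2 −1.59 ± 0.24). As in all called genes, the groups of these did not overlap. Trh (log2 −1.22), Nts (−1.19), Pomc (−1.02) and Gnrh1 (−0.85) were lower too. Of 9 tested markers of pituitary and hypothalamus, 5 passed the filter through 1 tissue alone. In spinal cord 7 of the 9 were lower and 2 higher. With 1 RPKM required in all 4 libraries, 2 were lower and 1 higher. Pitx1, Rax and Nr5a1 were at 0 in spinal cord. The listed markers summed to 240.9 and 250.3 RPKM in forebrain against 154.5 and 156.3. Most of it came from Sf1, a symbol that names a splicing factor and is among the 9. Of the 9, 5 were called lower without either forebrain library, 2 without spinal cord replicate 1 and 3 without replicate 2. Pou1f1, a pituitary factor, was at 0 in all 4 libraries, and the part of hypothalamus in these peptide differences was not tested. Calca, the calcitonin gene-related peptide gene, and Edn3 were not called. Without spinal cord replicate 1 limma called 2 peptide genes higher and 2 lower, and without replicate 2 it called 2 and 3. The counts were 19 and 5 without forebrain replicate 1, and 16 and 4 without replicate 2.

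Most receptors for peptides and monoamines that were tested were higher in spinal cord. Of 80 listed, 79 were in the table and 29 were tested, 11 of them through 1 tissue alone. Of the 29, 19 were higher in spinal cord and 6 lower (median log2 0.65). Htr7, a serotonin receptor coupled to cyclic AMP, was at 0.5 RPKM in each forebrain library and 5.8 and 7.8 in spinal cord (log2 2.37 ± 0.15, limma adjusted p = 0.00181). Npy1r, a receptor for neuropeptide Y, was at 0.3 and 0.4 RPKM in forebrain and 2.8 and 2.4 in spinal cord (log2 1.41 ± 0.09). Galr1, a galanin receptor, was at 0.1 RPKM in each forebrain library and 1.2 and 1.1 in spinal cord, and Tacr1, the substance P receptor, at 0.5 in each and then 2.6 and 2.1. These 3 receptors passed the filter through spinal cord alone, so only a higher level there could be called, and Galr1 and Tacr1 were picked with their values known. For somatostatin the receptors differed in direction. Sstr2 was at 21.5 and 19.5 RPKM in forebrain and 8.8 and 9.9 in spinal cord (log2 −1.06 ± 0.084, limma adjusted p = 0.00261). Sstr1 was at 1.9 and 1.7 RPKM in forebrain and 4.1 and 3.7 in spinal cord (log2 0.81). Calcr, the calcitonin receptor, was lower in spinal cord, at 2.2 and 1.7 RPKM against 0.4 in each library (log2 −1.07 ± 0.11). Ednrb, an endothelin receptor of progenitors and glia, was the most abundant member higher in spinal cord, from 30.3 and 32.4 RPKM to 74.3 and 66.2 (log2 1.14). Cnr1, the cannabinoid receptor, was at 17.3 and 15.7 RPKM against 15.2 and 16.6, with overlapping groups. Limma called 13 higher and 5 lower without forebrain replicate 1, and 10 and 4 without replicate 2. It called 3 higher and 0 lower without either spinal cord library.

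**Figure D2:**
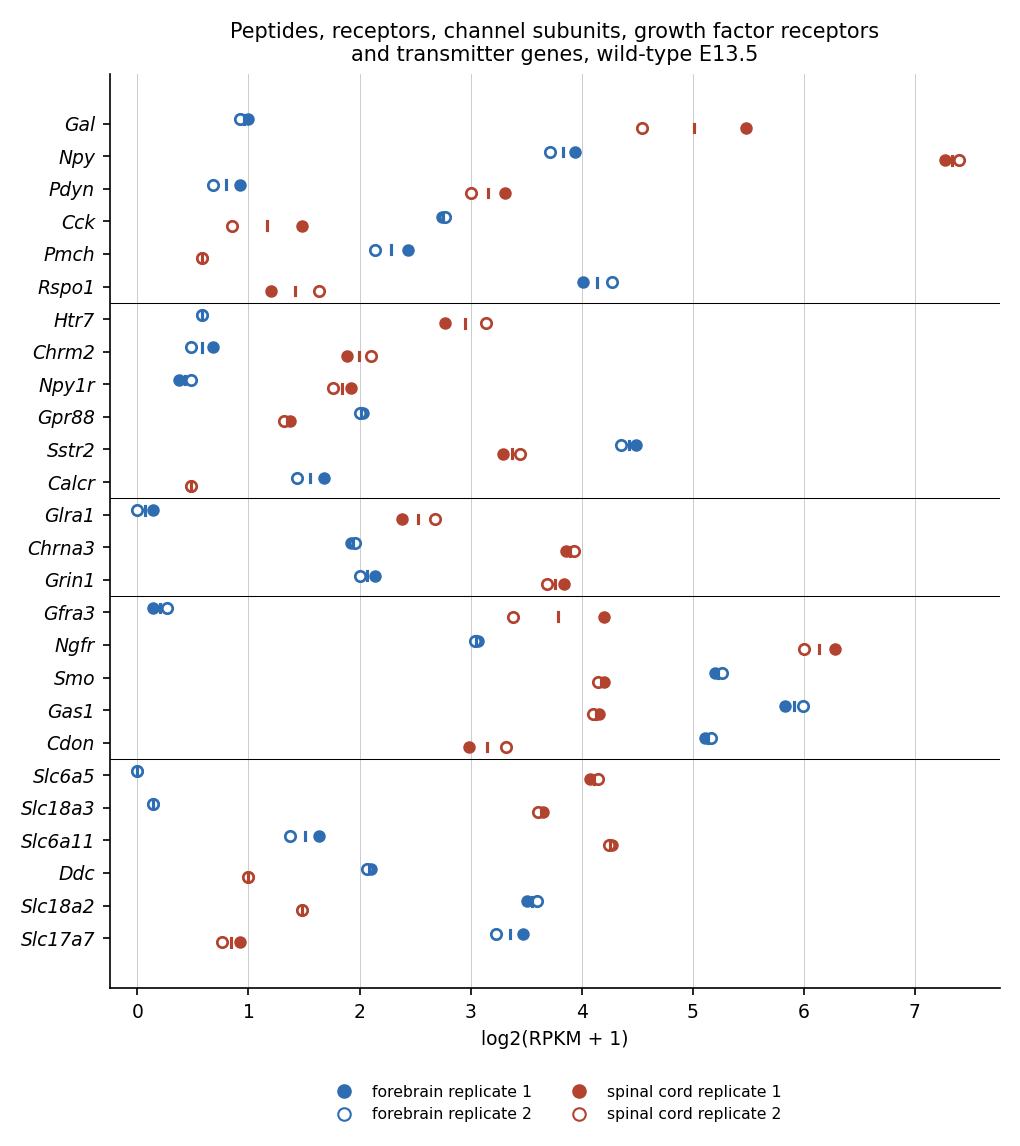
Level in each library, as log2(RPKM + 1) on the x axis, for peptides, peptide and monoamine receptors, channel subunits, growth factor receptors and transmitter genes, divided by lines. Filled and open points are replicates 1 and 2, and short bars are the mean of each tissue. Gal and Gfra3 show wide gaps between spinal cord replicates, while Npy, Slc6a5 and Sstr2 show close replicates and separate tissues.

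Subunits of transmitter-gated channels were mostly called higher in spinal cord. Of 50 listed, 34 were tested, 5 of them through 1 tissue alone, and 27 were higher and 0 lower in spinal cord (median log2 0.75). Glra1, the adult-type glycine receptor subunit, was at 0.1 and 0 RPKM in forebrain and 4.2 and 5.4 in spinal cord (log2 2.46 ± 0.13, limma adjusted p = 0.00153). Chrna3, a nicotinic subunit of ganglia, was at 2.8 and 2.9 RPKM against 13.5 and 14.3 (log2 1.95 ± 0.057). Grin1, the obligatory NMDA receptor subunit, was at 3.4 and 3 RPKM against 13.3 and 11.9 (log2 1.69 ± 0.088). Each of the 3 genes had its lowest spinal cord value above its highest forebrain value, as had every gene called higher. The kainate receptor subunit Grik5 was called at a small change, from 58.1 and 53.8 RPKM to 67.5 and 64 (log2 0.23). Gabra3 and Glrb were not called, with Glrb at 5.1 and 5.4 RPKM in forebrain and 5.4 and 6.2 in spinal cord. All 12 neuronal and all 16 ganglion and Schwann cell markers were higher in the same libraries, and their part in the counts of channel, peptide, peptide receptor, transmitter and calcium-binding genes was not tested. With the replicate number as a block, limma called 28 higher and 1 lower, and with no filter on low values 26 and 2. Calls were 24 and 0 without forebrain replicate 1, 22 and 0 without replicate 2, and 3 and 0 without either spinal cord library.

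Transmitter genes were mostly higher in spinal cord, with single members that were lower. Of 39 genes for synthesis and transport, 28 were tested, 5 of them through 1 tissue alone, with 19 higher and 5 lower in spinal cord (median log2 0.83). Slc6a5, the glycine transporter of glycinergic neurons, was at 15.9 and 16.7 RPKM in spinal cord, with 0 listed for either forebrain library (log2 4.11 ± 0.058, limma adjusted p = 0.000274). Slc18a3, the vesicular acetylcholine transporter, was at 0.1 RPKM in each forebrain library and 11.6 and 11.2 in spinal cord. Th, which makes the precursor of dopamine, was higher in spinal cord at 25.6 and 18.3 RPKM against 3.9 and 4.3. Other cholinergic genes, Chat (0 in forebrain, 2 and 2.2 RPKM in spinal cord), Slc5a7 (log2 2.15) and Ache (2.16), were higher as well. Vesicular glutamate transporters split: Slc17a6 was higher in spinal cord (33.7 and 34.9 RPKM against 18.8 and 17.6), and Slc17a7 was lower (0.9 and 0.7 against 10.1 and 8.4, log2 −2.51 ± 0.12). The 2 enzymes that make GABA differed, since Gad2 was lower in spinal cord (12.4 and 14.6 RPKM against 21.2 and 23.8) and Gad1 was at 20.5 and 21.1 RPKM against 21 and 21.7 and was not called. Slc18a2, the vesicular monoamine transporter, was at 10.4 and 11.1 RPKM in forebrain and 1.8 in each spinal cord library (log2 −2.07 ± 0.059). Thus Th and Slc18a2, both used by dopamine neurons, differed in opposite directions. Calls were 15 higher and 3 lower without forebrain replicate 1, 16 and 3 without replicate 2, 4 and 0 without spinal cord replicate 1, and 5 and 0 without replicate 2.

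Growth factor receptors were called in both directions. Of 69 listed, 68 were in the table and 61 were tested, 6 of them through 1 tissue alone, with 25 higher and 21 lower (median log2 0.08, close to that of all genes). Several receptors of neurotrophins and GDNF-family ligands were higher in spinal cord. Gfra3, the artemin receptor, was at 0.1 and 0.2 RPKM in forebrain and 17.4 and 9.4 in spinal cord (log2 3.59 ± 0.31, limma adjusted p = 0.00299). Ngfr, the common neurotrophin receptor, was at 7.4 and 7.2 RPKM against 76.7 and 63.2 (log2 3.09 ± 0.11). In both genes spinal cord replicate 1 was above replicate 2, and both were above forebrain. Ret, the signalling partner of the GDNF-family receptors, rose from 0.7 RPKM in each library to 14.6 and 12.4 (log2 3.09). Gfra1, which binds GDNF itself, was at 7.3 RPKM in each forebrain library and 36.8 and 38.6 in spinal cord (log2 2.22). Ntrk2 (log2 0.85) and Ntrk3 (0.70), which are also neurotrophin receptors, rose by less.

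Markers of dorsal root ganglion and Schwann cells moved with these receptors. All 16 listed markers were tested, 8 of them through 1 tissue alone, and all 16 were higher in spinal cord (median log2 3.17). The 11 that are in no other list summed to 20.1 and 18.2 RPKM in forebrain and to 363.2 and 279 in spinal cord, and none of the 16 was at 0 in a spinal cord library. Of the 16, 14 were higher in spinal cord replicate 1 than in replicate 2, against 49.4% of all tested genes. Scn10a, a sodium channel of pain-sensing neurons, was at 12.7 RPKM in spinal cord replicate 1 and 7.6 in replicate 2. Avil, a sensory neuron actin-binding protein, was at 14.4 and 9.3. Of the 26 tested spinal cord and hindbrain factors, 11 were higher in replicate 1 (median log2 −0.07, replicate 1 minus 2). Pax2, at 46.2 and 48 RPKM, and Lbx1 were close between replicates. Hoxc8, at 51.3 and 87.1 RPKM, and Hoxa5, at 80.3 and 117.7, were further apart. The part of ganglion RNA in the differences of Gfra3, Ngfr, Gal and Prph was not tested. All 16 markers were called with no filter, and 10, 9, 7 and 9 were called without forebrain replicate 1, forebrain replicate 2, spinal cord replicate 1 and spinal cord replicate 2.

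Several receptors of the Hedgehog pathway were among the growth factor receptors lower in spinal cord. Cdon, a coreceptor that binds Sonic hedgehog, was at 33.5 and 34.9 RPKM in forebrain and 6.9 and 9 in spinal cord (log2 −1.99 ± 0.13, limma adjusted p = 0.00198). Gas1, another coreceptor, was at 56 and 62.9 RPKM against 16.8 and 16.2 (log2 −1.79 ± 0.07). Smo, the signal transducer of the pathway, was at 35.7 and 37.4 RPKM against 17.4 and 16.7 (log2 −1.06 ± 0.045). The groups were separate for each of these genes, as for all called genes. Boc, the remaining coreceptor listed, was lower by −0.81, while Ptch1, the ligand-binding receptor and a target gene of the pathway, was higher (log2 0.32). Shh itself was at 5.7 and 6.6 RPKM in forebrain and 5.2 and 5.3 in spinal cord and was not called. Fgfr2 (log2 −0.93), Notch1 (−0.60) and Bmpr1a (−0.70) were lower, and Fgfr1 was at 40.6 and 55.8 RPKM against 33.7 and 40.7 with overlapping groups. Over the whole list limma called 12 higher and 13 lower without forebrain replicate 1, 11 and 11 without replicate 2, and 5 and 1 without either spinal cord library.

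Adhesion molecules of the immunoglobulin and leucine-rich repeat type, many of which act in axon bundling and synapse formation, were mostly higher in spinal cord. Of 93 listed symbols 84 were in the table and 82 were tested, 5 of them through 1 tissue alone, with 58 higher and 8 lower (median log2 0.59). Cntn4, an axonal contactin, was at 1.5 and 1.2 RPKM in forebrain and 8.5 in each spinal cord library (log2 2.02 ± 0.085, limma adjusted p = 0.00125). Cntnap1, a partner of contactin at the axon-glia junction, was at 0.6 and 0.9 RPKM against 5.6 and 6 (log2 1.96 ± 0.11). Cntn1 (log2 1.61), Cntn2 (1.36) and Ncam1 (1.18) were also higher. Members lower in spinal cord included Cntnap2, at 36.4 and 42.9 RPKM in forebrain and 20.8 and 19.6 in spinal cord (log2 −0.94 ± 0.095, limma adjusted p = 0.00412). Flrt3, a ligand of latrophilin and Unc5 receptors, was at 14 and 16.8 RPKM against 6.7 and 7.2 (log2 −1.04 ± 0.105). The contactin-associated genes Cntnap1 and Cntnap2 therefore stood in opposite order in the tissues. Igsf8, Cadm1 and Tenm4 were lower as well. All 12 neuronal markers were higher in the same libraries, and their part in the adhesion counts was not tested. Calls were 38 higher and 4 lower without forebrain replicate 1, 30 and 4 without replicate 2, 1 and 0 without spinal cord replicate 1, and 2 and 0 without replicate 2.

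Cadherins and nonclustered protocadherins changed less evenly. Of 44 listed, 42 were in the table and 35 were tested, 3 of them through 1 tissue alone, with 15 higher, 6 lower and 14 not called (median log2 0.23). Cdh13, the cadherin without a transmembrane part, was at 7.9 and 5.4 RPKM in forebrain and 18.8 and 19.4 in spinal cord (log2 1.41 ± 0.18, limma adjusted p = 0.00656). Pcdh7 was at 6.1 RPKM in each forebrain library and 16.2 and 17.9 in spinal cord (log2 1.34 ± 0.065). Celsr1, a planar polarity cadherin of the neuroepithelium, was lower in spinal cord, at 20.4 and 20.1 RPKM against 6.6 and 6.8 (log2 −1.46 ± 0.043). Its relatives Celsr2 (log2 0.28) and Celsr3 (0.52) were higher. Thus the 3 members of this family did not share a direction. Cdh2, N-cadherin, was abundant in both, at 79.4 and 82 RPKM in forebrain and 70.3 and 70.6 in spinal cord (log2 −0.19). Cdh4, R-cadherin, overlapped, with its forebrain replicates at 20.1 and 30.7 RPKM. Calls were 12 and 5 without forebrain replicate 1, 8 and 4 without replicate 2, and 3 and 1 without either spinal cord library.

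Eph receptors and ephrins, which repel or attract axons at contact, differed by gene in both directions. Of 22 listed, 20 were tested, none through 1 tissue alone, with 7 higher and 10 lower (median log2 −0.27). Epha3 was at 23.7 and 24.2 RPKM in forebrain and 7.2 and 6.2 in spinal cord (log2 −1.70 ± 0.08, limma adjusted p = 0.00138). Epha10, a receptor without kinase activity, was at 1.6 and 1.3 RPKM against 8.1 and 9 (log2 1.96 ± 0.097). Efna3, a membrane-anchored ligand, was at 9.9 and 9 RPKM against 31 and 31.7 (log2 1.63 ± 0.059). All 3 transmembrane ephrins were lower in spinal cord, namely Efnb1 (87.3 and 86.9 RPKM in forebrain, 33.1 and 29.7 in spinal cord), Efnb2 (49.4 and 50.2, then 24.6 and 24.3) and Efnb3 (−0.33). Epha4, a receptor for both ligand classes, was at 37.7 and 37.3 RPKM against 16.2 and 18.1 (log2 −1.09). Calls were 4 and 7 without either forebrain library, 0 and 3 without spinal cord replicate 1, and 0 and 4 without replicate 2.

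Among integrins and matrix genes, 51 of 55 listed were tested, 3 of them through 1 tissue alone, with 24 higher and 12 lower (median log2 0.26). Spon1, F-spondin, a secreted floor plate protein, was at 5.5 and 5.3 RPKM in forebrain and 40.3 and 43.1 in spinal cord (log2 2.74 ± 0.053, limma adjusted p = 0.000508). Ntn1, the floor plate guidance cue netrin, was at 14.3 and 14.1 RPKM against 51.1 and 52.7 (log2 1.80). Thbs1, thrombospondin, was at 11.5 and 12.3 RPKM in forebrain and 3.7 and 2.9 in spinal cord (log2 −1.59 ± 0.11). Vcan, a proteoglycan of the embryonic matrix, was lower (log2 −1.05), and Reln, the extracellular guide of migrating neurons, was higher, from 14 and 14.6 RPKM to 26.7 and 31.3 (log2 0.97). Itgb1, the common integrin beta chain, was not called. Calls were 13 and 6 without forebrain replicate 1, 11 and 4 without replicate 2, 3 and 0 without spinal cord replicate 1, and 4 and 0 without replicate 2.

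**Figure D3:**
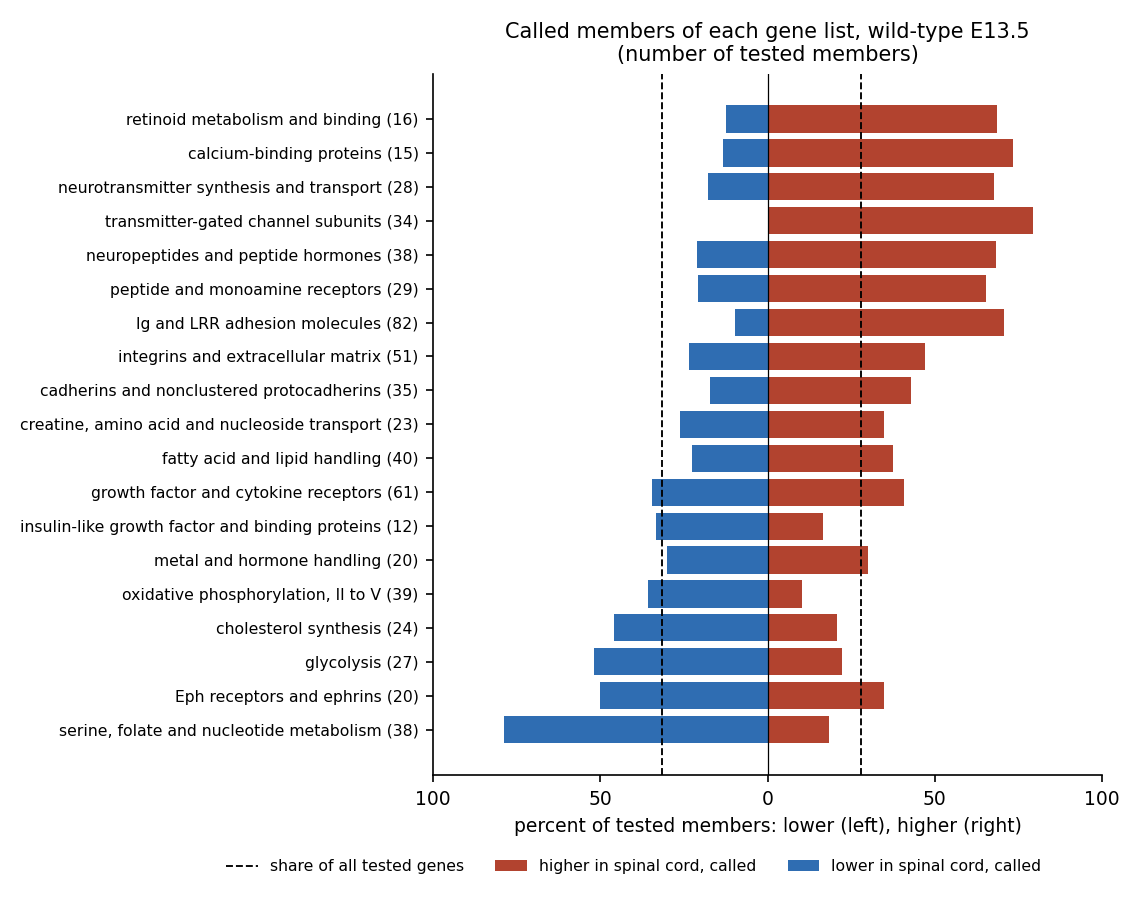
Percent of the tested members of each gene list called higher (right, red) or lower (left, blue) in spinal cord, with the number tested in brackets. Dashed lines mark the shares among all tested genes, 27.9% higher and 31.7% lower. Channel subunits had 27 of 34 members higher and 0 lower, and serine, folate and nucleotide genes had 30 of 38 lower.

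Retinoic acid is made from vitamin A by retinaldehyde dehydrogenases, held by cellular binding proteins, removed by Cyp26 enzymes and read by nuclear RAR and RXR receptors. It is known to pattern the hindbrain and spinal cord. Of 21 listed genes 16 were tested, 1 of them through 1 tissue alone, with 11 higher and 2 lower in spinal cord (median log2 1.17). Aldh1a2, the main synthesizing enzyme of the trunk, was at 5.4 and 4.4 RPKM in forebrain and 38.5 and 58.1 in spinal cord (log2 3.04 ± 0.23, limma adjusted p = 0.00246). It was higher in spinal cord replicate 2 than in replicate 1, the reverse of the ganglion markers. Aldh1a3, which makes retinoic acid in parts of the forebrain and eye, was at 3.7 and 3.2 RPKM in forebrain and 0.5 and 0.6 in spinal cord (log2 −1.52 ± 0.088). The 2 enzymes thus had opposite orders. Crabp1, a binding protein, was at 44.1 and 36.2 RPKM against 281.5 and 286 (log2 2.80 ± 0.11), and Stra6, the vitamin A uptake receptor, rose from 7.3 and 7.5 RPKM to 24.8 in each library (log2 1.62 ± 0.04). Calls were 7 and 2 without forebrain replicate 1, 7 and 1 without replicate 2, and 2 and 0 without either spinal cord library. The call of Aldh1a2 was lost without any 1 library, at limma adjusted p = 0.052 and 0.0607 without forebrain replicates 1 and 2 and 0.0531 and 0.0512 without spinal cord replicates 1 and 2.

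The receptor genes Rara (log2 1.23), Rarb (1.43) and Rxrg (1.28) were higher in spinal cord. Rarb was at 5.6 and 5.2 RPKM in forebrain and 15.6 and 17 in spinal cord, while Rarg was not called and Rxra was lower (log2 −0.44). Rarb and the degrading enzyme gene Cyp26a1 are textbook direct targets of retinoic acid, and the 250 bases before their starts are shown because both hold the letters of a retinoic acid response element. The motif searched on both strands was GTTCA, any 6 bases, and GTTCA again, and the whole match is in capitals. The sequences are from RefSeq on GRCm38.p6, at chr14:16575477-16575726 on the minus strand for Rarb and chr19:37697558-37697807 on the plus strand for Cyp26a1.
Rarb: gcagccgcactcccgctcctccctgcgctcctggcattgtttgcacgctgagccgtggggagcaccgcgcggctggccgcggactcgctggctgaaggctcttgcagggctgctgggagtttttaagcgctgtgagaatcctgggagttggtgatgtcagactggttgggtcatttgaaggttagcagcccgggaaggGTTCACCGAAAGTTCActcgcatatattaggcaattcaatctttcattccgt
Cyp26a1: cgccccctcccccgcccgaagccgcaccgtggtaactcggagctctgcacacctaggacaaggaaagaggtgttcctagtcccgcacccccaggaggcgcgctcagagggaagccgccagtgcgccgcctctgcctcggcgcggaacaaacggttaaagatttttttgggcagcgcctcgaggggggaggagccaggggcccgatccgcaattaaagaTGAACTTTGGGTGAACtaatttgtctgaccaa
In Rarb the match lies 52 to 37 bases before the start, and in Cyp26a1 it lies 32 to 17 bases before it, on the opposite strand. Of 32851 RefSeq windows of this length, 22 (0.067%) held the motif. Among 17 retinoid genes with a window, these 2 genes held it. The letters describe the window and do not show binding. In expression the 2 genes differed, since Cyp26a1 stayed between 0.1 and 0.4 RPKM in all 4 libraries and was not tested. Of 21 genes with the motif 5 were tested, of which 1 was called higher and 2 lower. Cyp26b1, the related degrading enzyme, was at 1.6 and 1.2 RPKM in forebrain and 4.6 and 4.4 in spinal cord (log2 1.20).

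Genes of serine, folate and nucleotide metabolism, which supply DNA synthesis, were lower in spinal cord. All 38 listed were tested, with 30 lower, 7 higher and 14 lower by at least 1 (median log2 −0.73). Rrm2, the regulated subunit of ribonucleotide reductase, was at 109.1 and 132.5 RPKM in forebrain and 16.4 in each spinal cord library (log2 −2.80 ± 0.11, limma adjusted p = 0.00119). Tk1, thymidine kinase of the S phase, was at 29.6 and 34.7 RPKM against 4.8 and 6 (log2 −2.37 ± 0.13). Shmt1, a serine hydroxymethyltransferase, was at 14.8 and 16.1 RPKM against 2.3 and 2.7 (log2 −2.23 ± 0.087). The groups were far apart in all 3 genes, which were picked by rule for their large changes. Tyms (log2 −1.62), Gldc (−1.79) and Psat1 (−1.05) were lower, while Phgdh, the first enzyme of serine synthesis, was lower by −0.78. Aldh1l1, a folate enzyme also used as an astrocyte marker, was higher, at 3.4 and 2 RPKM in forebrain and 15.9 and 17 in spinal cord (log2 2.26 ± 0.21, limma adjusted p = 0.00346). Astrocyte lineage markers were mixed, with 2 of 5 tested higher, Aldh1l1 among them, and 3 lower (median log2 −0.79). Markers of dividing progenitors, without those shared with other lists, summed to 1552.1 and 1706.8 RPKM in forebrain and 908.1 and 845.9 in spinal cord. None was at 0. Much of these sums came from Vim, which was not called, at 584.4 and 610.9 RPKM in forebrain and 613.2 and 530.3 in spinal cord. The part of the progenitor markers in the lower nucleotide genes was not tested. Calls were 3 higher and 27 lower without forebrain replicate 1, 3 and 23 without replicate 2, and 0 and 0 without either spinal cord library.

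In glycolysis, some isozymes of 1 step stood in opposite order. Of 27 tested genes 6 were higher and 14 lower (median log2 −0.23). Hk1 was higher in spinal cord (45.2 and 41.6 RPKM against 24.6 and 22.2), and Hk2, another hexokinase, was lower (1.7 in each library against 7.7 and 7.9, log2 −1.70 ± 0.053). Pfkp, the platelet-type phosphofructokinase, was at 11 and 9.6 RPKM in forebrain and 48.6 and 42.6 in spinal cord (log2 2.04 ± 0.10, limma adjusted p = 0.00141), and Pfkl was lower (log2 −0.38). Eno2, the neuronal enolase, was at 8.8 and 7.3 RPKM against 30.5 and 32.1 (log2 1.84 ± 0.099), and Eno1 was lower (−0.23). At each of these steps the 2 isozymes named had calls in different directions. The pairs were completed after the values were seen, and Pfkm, another listed phosphofructokinase, is not described. Ldha, lactate dehydrogenase A, was at 137.1 and 140.9 RPKM in forebrain and 60.2 and 57.9 in spinal cord (log2 −1.22 ± 0.037), while Ldhb was at 136.9 and 129.5 against 143.8 and 145 and was not called. Slc16a1, a lactate transporter, was lower (log2 −1.34). After quantile normalization the median was −0.10, with 9 higher and 13 lower. Calls were 4 and 10 without forebrain replicate 1, 4 and 8 without replicate 2, 0 and 1 without spinal cord replicate 1, and 0 and 2 without replicate 2.

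Other metabolic groups changed little in size. Of 39 nuclear genes of respiratory complexes II to V, 4 were higher and 14 lower, and none by as much as 1 (median log2 −0.10). This order depended on scaling, since median ratio scaling gave 6 higher and 7 lower and quantile normalization 8 and 4. Cox4i1, a core subunit of cytochrome oxidase, was at 425.4 and 428.8 RPKM in forebrain and 418.3 and 417.6 in spinal cord. Of 24 tested cholesterol genes, 5 were higher and 11 lower, again none by 1. Idi1, an isomerase of the mevalonate pathway, was at 14.6 and 16.5 RPKM against 9.9 in each library (log2 −0.60 ± 0.072, limma adjusted p = 0.00586). After quantile normalization the cholesterol counts were 5 and 6. Lipid genes had 15 of 40 tested members higher and 9 lower. Pla2g7, a secreted phospholipase, was at 2.2 and 1.4 RPKM in forebrain and 14 and 13 in spinal cord (log2 2.39 ± 0.16, limma adjusted p = 0.0021). Apoe, the lipid carrier of glia, was higher at 109.5 and 82 RPKM against 59.7 and 42.4. Without either spinal cord library 0 genes of these 3 lists were called. Without forebrain replicate 1 limma called 0 higher and 6 lower respiratory genes, 3 and 6 cholesterol genes and 7 and 6 lipid genes. The counts without forebrain replicate 2 were 0 and 3, 3 and 3, and 7 and 2.

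Metal and hormone handling included genes with large changes towards forebrain. The metallothionein genes Mt2 (12.4 and 14 RPKM in forebrain, 3 and 1.5 in spinal cord, log2 −2.16 ± 0.26), Mt1 (−1.60) and Mt3 (−0.91) were all lower in spinal cord. Crym, a thyroid hormone-binding protein, was at 11.2 and 10.9 RPKM against 2.3 and 2.4 (log2 −1.85 ± 0.053), and Dio3, the enzyme that inactivates thyroid hormone, was lower (−1.15). Of the 20 tested members 6 were higher and 6 lower. Among insulin-like growth factor genes Igfbp5, a binding protein, was at 60.3 and 58.1 RPKM in forebrain and 213.9 and 242.5 in spinal cord (log2 1.93 ± 0.074, limma adjusted p = 0.00119). The RNA-binding proteins Igf2bp1 (log2 −1.31), Igf2bp2 (−0.76) and Igf2bp3 (−0.66), which are known from growing embryonic tissue, were lower together. Calcium-binding proteins had 11 of 15 tested members higher and 2 lower (median log2 0.90). The 2 lower members, Calb2 (18.1 and 17.5 RPKM against 4.2 and 3.6) and Calb1 (7.3 and 5.9 against 2 and 1.8), are calretinin and calbindin, markers of local circuit neurons. Vsnl1, a neuronal calcium sensor, was at 2.4 and 1.2 RPKM in forebrain and 11 and 11.2 in spinal cord (log2 2.15 ± 0.24). Transporters of creatine, amino acids and nucleosides had 8 higher and 6 lower of 23 tested. Slc43a1, a neutral amino acid transporter, was at 5.9 RPKM in each forebrain library and 1.6 and 1.5 in spinal cord (log2 −1.44). Without either spinal cord library the metal and hormone list had 0 higher and 2 lower calls, calcium-binding proteins 1 and 1, and transporters 0 and 1. Without forebrain replicate 1 the counts were 1 and 3, 9 and 2, and 6 and 4, and without replicate 2 they were 1 and 3, 8 and 2, and 3 and 3.

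The spinal cord replicates differed in their posterior genes. Hox genes are numbered by paralogue group from head to tail, and those of groups 10 to 13 mark lumbar, sacral and tail levels. Of 23245 genes above 0 in some library, 18 (0.0774%) were higher in spinal cord replicate 1 by at least 2 on the log2 scale and 3 (0.0129%) in replicate 2. In forebrain the same counts were 7 (0.0301%) and 3 (0.0129%). By at least 1, the counts were 78 (0.336%) and 61 (0.262%) in spinal cord and 72 (0.31%) and 66 (0.284%) in forebrain. Hoxc10 was at 45.2 RPKM in spinal cord replicate 1 and 0.2 in replicate 2. Hoxd10 was at 23.2 and 0, Hoxa10 at 34.6 and 3, and Hoxd9 at 26.9 and 0.3. Hoxc12 (17.4), Hoxc11 (13.7), Hoxd11 (8.2), Hoxa11 (5.4) and Hoxc13 (3.3) were listed at 0 in replicate 2, as was the noncoding RNA Hotair, at 3.5 RPKM in replicate 1. Both forebrain libraries were at 0 or 0.1 for each of these genes. One library against 1 allows no test. Most of them were not tested between the tissues, because only 1 library reached 1 RPKM. Hoxa10 was tested and not called (log2 3.58 ± 1.16, limma adjusted p = 0.0638).

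The difference began within paralogue group 9. Of the 12 Hox genes of groups 10 to 13, 8 reached 1 RPKM in a spinal cord library, and all 8 were higher in replicate 1, with sums over the 12 of 152.5 RPKM in replicate 1 and 3.4 in replicate 2. In group 9 the sums were 401.4 and 403 RPKM. There Hoxa9 was at 65.6 and 43.3 RPKM, Hoxb9 at 268.2 and 318.1, and Hoxc9 at 40.7 and 41.3, so that Hoxd9 alone of the 4 stood far apart. In groups 4 to 8 the order was turned, with 14 of 15 genes higher in replicate 2 and sums of 1040.6 and 1273.5 RPKM (median log2 −0.35, replicate 1 minus 2). Hoxc8 was at 51.3 RPKM in replicate 1 and 87.1 in replicate 2, and Hoxa5 at 80.3 and 117.7. Hoxd8 was the exception, at 45.4 and 35.2. Groups 1 to 3 had 7 of 8 genes higher in replicate 2. The median difference of all tested genes between the replicates was 0, with a median size of 0.068. Neighbouring genes in a Hox cluster lie close together and can share transcripts, so these counts are not independent.

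**Figure D4:**
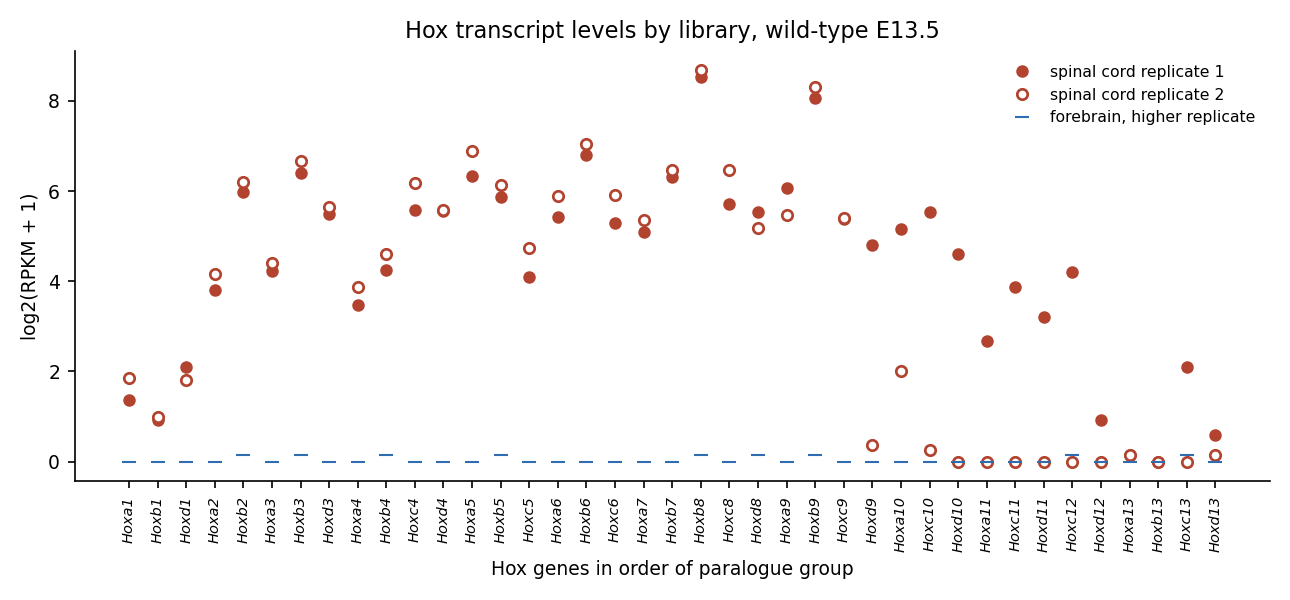
Level of each Hox gene, as log2(RPKM + 1) on the y axis, in order of paralogue group. Filled and open red points are spinal cord replicates 1 and 2, and blue dashes are the higher forebrain replicate. Up to Hoxc9 the replicates differ by less than 1, and from Hoxd9 on replicate 1 is above replicate 2 by more than 2 wherever a gene reaches 1 RPKM.

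Of 40 listed posterior and tail-level genes, Hox genes included, 14 were tested. Of these 14, 4 were higher in spinal cord replicate 1 than in replicate 2. The median log2 difference of the 14, replicate 1 minus 2, was −0.01. The filter asked for 1 RPKM in 2 libraries, so it removed Hoxd9, Hoxc10, Hoxd10 and others near 0 in replicate 2 and forebrain. The count and the median thus leave out genes that were far apart, and do not describe the posterior genes as a whole. Wnt5a was at 6.5 and 7.9 RPKM in spinal cord and showed no such gap. Several other genes of the tail end were too low to show one. Cdx1, Cdx2, Cdx4 and Msgn1, which act in the tail bud, were at 0 in all 4 libraries, and T, a mesoderm factor, was at 0.5 RPKM in each forebrain library and 0.4 in each spinal cord library. Gdf11, a signal that sets the level of posterior Hox genes, was at 20.8 and 21.1 RPKM in spinal cord and 13.2 and 14 in forebrain (log2 0.59 ± 0.047, limma adjusted p = 0.0026). Isl1, a factor of motor and sensory neurons, was higher in spinal cord replicate 1 (107.6 RPKM) than in replicate 2 (81.8), with forebrain at 51.4 and 56.7. The regional call of Isl1 (limma adjusted p = 0.0188) was lost without any 1 library, with adjusted p from 0.0572 to 0.174. Ganglion markers and posterior Hox genes were thus both higher in spinal cord replicate 1, by different amounts: no ganglion marker reached a log2 difference of 1.

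The replicate numbers also differed in sex-linked genes. Xist, the X inactivation RNA, was at 0 in replicate 1 of both tissues and at 75 and 83.5 RPKM in replicate 2 of forebrain and spinal cord. Eif2s3y, on chromosome Y, was at 28 and 29.7 RPKM in replicate 1 of forebrain and spinal cord and at 0 in replicate 2 of each. Kdm5d, Ddx3y and Uty followed Eif2s3y. Sex therefore varied with replicate number in both tissues and not with tissue. In spinal cord it cannot be told apart from the other differences between the 2 libraries, the posterior Hox genes among them. In forebrain, where Xist and the Y genes differed likewise, all Hox genes of groups 9 to 13 were at 0 or 0.1 RPKM in both libraries. At these levels forebrain could not show a difference of posterior Hox genes with sex, and the part of sex was not tested.

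**Figure D5:**
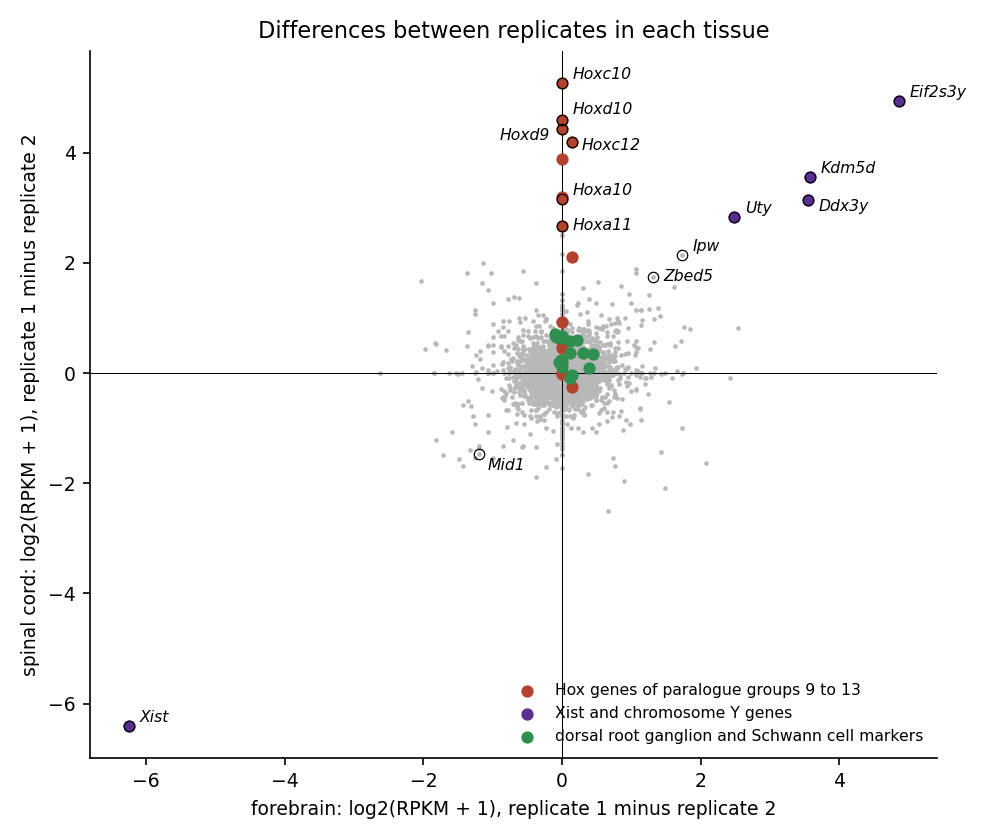
Difference between replicates 1 and 2 in forebrain (x axis) and in spinal cord (y axis), as log2(RPKM + 1), for every gene above 0 in some library. Posterior Hox genes lie along the spinal cord axis, Xist and the chromosome Y genes lie on the diagonal, and the ganglion markers lie within 1 of 0.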

How the data were processed

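Total RNA of dissected tissue was made into NEBNext Ultra libraries and sequenced on a HiSeq2500 as unstranded single-end reads of 50 bases, per the labels' protocols. The authors deposited 1 table of RPKM values with 36333 rows. The submitters' processing notes name the builds mm9 and GRCm38 without their role; the aligner and counting tool are not given in the sources used here. For 9 symbols on several rows, the most abundant row was used. Gene names were used in deposited row order for E13.5. In the E15.5 columns of the same table the names do not match the rows in that order, so those columns entered an alternative fit only, with the names sorted alphabetically.

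Groups followed the labels. Values were taken as log2(RPKM + 1), and a limma model (version 3.58.1, R 4.3.3, with an intensity trend in eBayes) was fitted to the 4 libraries. The fit left 2 residual degrees of freedom. The two-sided tests used 3.73 in total, with those that limma adds from its sharing of the spread across genes. Genes under 1 RPKM in more than 2 libraries were not tested. The script was tested on simulated data. Named genes were the 15 highest and 15 lowest called genes with non-overlapping groups, a mean of 2 RPKM or more in the higher tissue and no Hox or predicted symbol. From each list the rule took up to 3 called members each way and up to 2 abundant members without a call, and between spinal cord replicates the 12 largest differences each way. Other list members named in the text, such as receptors beside their ligands, were chosen after their values were seen. The 22 gene lists and 17 marker lists, like the comparison itself, were chosen with earlier results of these data known. Alternatives covered pseudocounts, filters, scaling, the variance trend, a replicate block, a fit of all 8 libraries and each library left out. Tables were made with pandas 2.3.3 and numpy 2.4.6 in Python 3.11.15, and figures with matplotlib 3.10.9. Some genes are not reported here.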

Additional observations from a re-analysis of the deposited data

How the results depend on the processing

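The number of genes called between the tissues was 8758 and stayed between 7617 (all 8 libraries, with the E15.5 gene names, which do not match their rows as deposited, sorted alphabetically) and 9084 (no filter) under the alternatives that left out no library. Leaving out a library gave 395 to 5446 calls, with the lowest counts without a spinal cord library. All 8758 genes kept their direction in each alternative that tested them. Their groups did not overlap, so leaving out a library or changing the pseudocount or filter could not turn it. Of 202 named genes with a call, 64 and 67 kept it without spinal cord replicates 1 and 2, 163 and 149 without forebrain replicates 1 and 2, 198 in the fit of all 8 libraries and 184 with no filter. With the replicate number as a block, called the replicate block here, 8371 genes and 199 of the named calls passed. The labels do not say that equal numbers share an embryo. Differences between replicates 1 and 2 correlated across genes between the tissues at 0.241, or 0.118 without Xist and the chromosome Y genes. Median ratio scaling gave 4442 higher and 4349 lower genes, against 4101 and 4657. Genes apart between replicates by at least 2 numbered 21 in spinal cord and 10 in forebrain. A pseudocount of 0.5 gave 52 and 42, and a threshold of 1 gave 139 and 138. The cause of these changes was not tested, apart from fewer samples and looser thresholds. Rounding to 0.1 RPKM limits genes near 0.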

Other observations

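Gene families taken by the start of their symbols gave values for channels, transporters and guidance genes that the lists did not hold. Of 57 tested potassium channel genes (symbols starting Kcn), 35 were higher and 10 lower in spinal cord, with a median log2 of 0.70. Kcnma1, the large-conductance calcium-activated channel, was at 2.4 and 1.9 RPKM in forebrain and 8.5 and 8.7 in spinal cord. Kcne2, a beta subunit known from choroid plexus, was at 5.4 and 5.8 RPKM against 0.2 and 0. Choroid plexus markers were lower in the same libraries, as given above, and their part was not tested. Of 237 tested solute carriers (Slc), 94 were higher and 44 lower. Slc30a3, the zinc transporter of synaptic vesicles, was at 1.3 and 1.1 RPKM in forebrain and 15.7 and 15.4 in spinal cord (log2 2.91), and Slc30a10, a manganese exporter, at 8.9 and 7.3 against 2.3 and 2.2 (log2 −1.48). Of 20 tested semaphorins 14 were higher and 2 lower. Sema5a was the lower one with a change of at least 1, at 11.4 and 11.5 RPKM against 5 and 5.2. Of 34 tested collagen genes 15 were higher and 2 lower, and Col14a1 was at 1.6 and 1.2 RPKM against 12.4 and 13.6 (log2 2.55). The individual genes named here were chosen after their values were seen.

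Zic genes, zinc finger factors of the dorsal neural tube, did not all move together. Zic1 was higher in spinal cord (125.1 and 133 RPKM against 88.2 and 91.1), Zic2 (log2 −0.67) and Zic5 (−1.08) were lower, and Zic4 was not called. Of 5 tested Irx genes, Irx5 (3.3 and 2.1 RPKM in forebrain, 6.7 and 6.8 in spinal cord, log2 1.09) and Irx6 (0.61) were higher in spinal cord, and the median was 1.09. Forebrain replicates of some members were apart, since Irx1 was at 8.2 and 2.8 RPKM in forebrain and 12.6 and 13.3 in spinal cord, and Irx2 at 5.6 and 1.6 against 11.4 and 10.7, both without a call.

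Some genes outside the sex chromosomes differed by replicate number in both tissues. Of 43 tested genes apart by at least 1 in both, 17 were higher in replicate 1 of both, 13 in replicate 2 of both, and 13 went in opposite directions. These counts cover all chromosomes and include Xist, the chromosome Y genes and genes with predicted or clone names. All genes that went in opposite directions had predicted or clone names. Zbed5, on chromosome 5, was at 46.5 and 18.1 RPKM in forebrain replicates 1 and 2 and at 60.7 and 17.5 in those of spinal cord. Commd7, on chromosome 2, was at 26.9 and 10.7, then 24.9 and 10.5. Ipw, an imprinted noncoding RNA on chromosome 7, was at 5.3 and 0.9, then 14.4 and 2.5. Myo7a, also on chromosome 7, was higher in replicate 2, at 0.5 and 3.2, then 0.5 and 3.4. The X-linked gene Mid1 was higher in replicate 2 as well, at 17.3 and 41 RPKM in forebrain and 5.7 and 17.5 in spinal cord.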
